A study of Mus musculus with 45 samples.

Results

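The genes described here are the heat shock proteins and J-domain proteins of mouse, taken as every gene whose symbol begins with Dnaj, Hspa, Hspb, Hspd, Hspe, Hsph or Hsp90. They number 71 of the 27179 genes in the deposited count table, and they were chosen by name alone. By role they comprise 8 HSP70s outside the organelles, 3 HSP110s, 2 cytosolic HSP90s, 11 chaperones of the endoplasmic reticulum and 8 of the mitochondrion. The rest are 29 other J-domain proteins, 6 small heat shock proteins, 2 cofactors (Hspbp1, Hspbap1), the intraflagellar transport subunit Hspb11 and 1 pseudogene, Dnajc19-ps.

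HSP70 proteins bind and release unfolded stretches of protein in a cycle driven by ATP. J-domain proteins bring them their clients and start ATP hydrolysis, while HSP110 proteins exchange the nucleotide. When unfolded protein accumulates in the cytosol, heat shock factor 1 (HSF1) binds inverted repeats in promoters and raises Hspa1a, Hspa1b, Hsph1, Dnajb1, Hspa8 and the other inducible chaperones; the endoplasmic reticulum answers the same problem through its own sensors and raises Hspa5, Hsp90b1 and Dnajb9. In fat, the endoplasmic reticulum branch is known to be raised in obesity, and digestion of tissue into single cells is known to raise Hspa1a, Hspa1b and Dnajb1.

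RNA sequencing covered 45 libraries in 22 groups from C57BL/6 mice, in a study of how sex shapes the regulatory T cells (Treg) of visceral adipose tissue (VAT). Mice were 25 weeks old wherever the labels give an age, and each library pooled 3 to 5 mice where a number is given. Each group held 2 libraries, except whole VAT with 3 per sex and Foxp3cre VAT Treg with 1. Nothing in the labels says more about how separate the pools were, so p-values measure the spread between these libraries.

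The first comparison used YFP+ Treg of male mice labelled Blimp1fl/fl Foxp3cre, from VAT (5 mice a pool) and spleen (4 mice a pool). In these mice the Treg-expressed Cre should remove a floxed part of Prdm1 (Blimp1). Their Treg were set against YFP+ Treg of male Foxp3cre mice, which carry the same Cre, from VAT and spleen (4 mice a pool). For the only Foxp3cre VAT library the labels give no age and no pool size. RFP+ Treg from VAT (4 mice a pool) and spleen (3 mice a pool, no age given) of male and female Foxp3RFP reporter mice gave the comparison of tissues and sexes, and RFP- VAT CD4 T cells the comparison with other T cells. The other sorted cells, all of both sexes, were VAT group 2 innate lymphoid cells (ILC2; 5 mice a pool), GP38+ and GP38- VAT stroma sorted as CD45- Ter119- (4 mice a pool), and VAT adipocytes freed of the stromal vascular fraction (4 mice a pool). Whole VAT (3 mice a pool) was periovarian in females and epididymal in males. It and whole inguinal subcutaneous fat (SAT, 4 mice a pool) of both sexes were sequenced without sorting. Only the titles of the whole VAT libraries carry the label ND, and whether it sets them apart from the other groups was not tested.

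Total counts lay between 4956080 and 61913009 per library. The Foxp3cre VAT Treg library is VAT by its title and tissue label, although its source text names the spleen; its Il1rl1 level of 1850 CPM, against 32.2 to 46.5 CPM in the Foxp3cre spleen Treg libraries, is that of the male Foxp3RFP VAT Treg libraries (1913 to 2367 CPM). Prdm1, the labelled target, had 60.8 and 41.2 CPM in spleen libraries labelled Blimp1fl/fl Foxp3cre, against 25.0 and 16.3 CPM in Foxp3cre. In VAT it had 121.1 and 147.8 CPM against 73.1 CPM. The whole-gene count was thus higher under the label in both tissues and does not show the deletion. Foxp3cre spleen Treg replicate 2 stood apart, with Foxp3 at 30.7 CPM against 144.9 CPM in replicate 1. GP38- stroma held 221 to 454 CPM of Ptprc (CD45) and 696 to 1554 CPM of the adipocyte hormone Adipoq, so blood cell and adipocyte RNA was present in a fraction sorted as CD45-. In whole tissue and mixed fractions, fewer cells of a type and less RNA per cell cannot be told apart.

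Promoters are shown for genes on which the results turn, from 250 bases before to 50 after the start, as RefSeq gives them on GRCm38.p6 (58 of the 71 genes have such a window). The motifs searched on both strands were the paired heat shock unit, GAANNTTC or TTCNNGAA, and the endoplasmic reticulum stress element, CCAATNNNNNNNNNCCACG. Capitals mark every match. Hsph1 (chr5:149636287-149636586, minus strand), Dnaja4 (chr9:54699309-54699608, plus strand) and Dnajb1 (chr8:83607925-83608224, plus strand) are shown because, of the members called higher in spleen Treg labelled Blimp1fl/fl Foxp3cre, they had the largest fold changes.
Hsph1: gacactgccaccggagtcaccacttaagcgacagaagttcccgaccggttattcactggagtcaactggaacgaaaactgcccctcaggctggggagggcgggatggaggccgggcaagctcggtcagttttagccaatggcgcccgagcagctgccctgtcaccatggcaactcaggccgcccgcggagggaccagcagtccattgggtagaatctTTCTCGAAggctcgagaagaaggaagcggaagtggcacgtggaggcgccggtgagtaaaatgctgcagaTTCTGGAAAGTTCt
Dnaja4: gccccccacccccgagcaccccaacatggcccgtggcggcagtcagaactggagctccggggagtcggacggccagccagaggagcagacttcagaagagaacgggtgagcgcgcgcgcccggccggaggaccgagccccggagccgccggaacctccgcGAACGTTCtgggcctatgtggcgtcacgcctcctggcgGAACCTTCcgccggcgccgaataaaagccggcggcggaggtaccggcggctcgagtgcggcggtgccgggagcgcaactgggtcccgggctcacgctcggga
Dnajb1: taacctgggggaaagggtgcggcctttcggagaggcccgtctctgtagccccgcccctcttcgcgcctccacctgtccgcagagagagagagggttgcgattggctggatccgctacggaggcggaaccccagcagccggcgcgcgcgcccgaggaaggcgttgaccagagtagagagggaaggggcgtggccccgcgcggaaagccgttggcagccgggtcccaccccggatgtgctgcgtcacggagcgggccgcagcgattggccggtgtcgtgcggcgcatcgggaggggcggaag
Hspa1a (chr17:34972107-34972406, minus strand) is shown because it was raised in stroma and adipocytes relative to whole VAT. Hspe1 (chr1:55087898-55088197, plus strand) is shown because it differed between tissues. The Hspe1 window is for the most part the Hspd1 window read on the other strand, since both genes start from 1 shared promoter. Hspa5 (chr2:34771840-34772139, plus strand) is shown as the endoplasmic reticulum counterpart.
Hspa1a: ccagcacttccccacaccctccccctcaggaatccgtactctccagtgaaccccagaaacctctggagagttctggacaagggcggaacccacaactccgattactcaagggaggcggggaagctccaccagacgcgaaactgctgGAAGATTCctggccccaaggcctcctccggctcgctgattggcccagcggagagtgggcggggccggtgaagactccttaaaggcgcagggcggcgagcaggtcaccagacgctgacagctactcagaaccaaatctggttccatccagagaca
Hspe1: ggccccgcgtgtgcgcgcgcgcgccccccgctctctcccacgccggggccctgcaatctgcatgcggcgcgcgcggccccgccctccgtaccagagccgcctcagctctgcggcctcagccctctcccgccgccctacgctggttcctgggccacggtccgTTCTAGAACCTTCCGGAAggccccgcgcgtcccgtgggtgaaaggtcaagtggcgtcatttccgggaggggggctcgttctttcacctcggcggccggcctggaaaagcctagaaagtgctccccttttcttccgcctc
Hspa5: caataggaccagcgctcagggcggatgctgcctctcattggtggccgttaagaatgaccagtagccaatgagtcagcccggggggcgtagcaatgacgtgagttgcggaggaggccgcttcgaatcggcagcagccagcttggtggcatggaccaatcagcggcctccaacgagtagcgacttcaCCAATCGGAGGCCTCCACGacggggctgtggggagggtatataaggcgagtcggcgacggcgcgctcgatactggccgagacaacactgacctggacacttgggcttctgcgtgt
Hsph1 held 3 matches between bases -33 and 41 from its start, Dnaja4 2 matches at -90 and -52, Hspe1 3 overlapping matches between -89 and -79 and Hspa1a 1 match at -104. Dnajb1 held none in this window. Where a gene has several windows, the one with the most matches is shown. The other Dnaja4 window (chr9:54699033-54699332) held none. The paired unit stood in the windows of 7 of 8 HSF1 targets with a window (87.5%) and of 14 of 58 of all the chaperone genes (24.1%), against 17.0% of the windows of 27025 genes. The form with 3 units in a row, GAANNTTCNNGAA, stood in 3 of the 8 HSF1 targets (37.5%) and 4 of the 58 (6.90%), against 0.662% of all windows. The HSF1 targets are a list of classical targets, without Dnaja4, so their share is given as a description. The 8 HSF1 target windows are not independent. Hspd1 and Hspe1 share 1 promoter, and the Hspa1a and Hspa1b windows are near-identical. The endoplasmic reticulum element stood in 3 of 10 endoplasmic reticulum members (30.0%) against 0.137% of all windows.

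Levels below are library-scaled counts (CPM), taken over the 45 libraries. Per kilobase of exon, the constitutive HSP90 Hsp90ab1 was the most abundant chaperone transcript, with a median over the 22 group means of 322 CPM per kb. The endoplasmic reticulum HSP70 Hspa5 (BiP) followed at 141, the constitutive HSP70 Hspa8 (HSC70) at 111 and the endoplasmic reticulum HSP90 Hsp90b1 (GRP94) at 94.9 CPM per kb. Dnaja2 at 64.6, Hspe1 (HSP10) at 54.0 and mitochondrial Hspa9 (mortalin) at 43.0 CPM per kb came next. Hsp90ab1 stayed between 204 CPM per kb in female GP38- stroma and 578 CPM per kb in spleen Treg labelled Blimp1fl/fl Foxp3cre, whereas Dnajb7 and Dnajb8 had a median of 0. Of the 71 genes, 49 had a count in every library.

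In spleen, Treg labelled Blimp1fl/fl Foxp3cre had more mRNA of the cytosolic heat shock chaperones than Foxp3cre Treg, and among the members called the difference was largest for Hsph1, Dnaja4 and Dnajb1. With edgeR's quasi-likelihood test and Benjamini-Hochberg adjustment over all genes, 4 of the 69 members tested were higher and 0 lower, 5.80% of the members, where 0.317% of all genes were called and 0.104% were called higher. DESeq2 called 9 members, and 14 had an unadjusted p under 0.05. The median log2 fold change was 0.23 over the members and 0 over all genes tested.

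Hsph1, the HSP110 nucleotide exchange factor of HSP70, had 606.2 and 172.4 CPM in the spleen libraries labelled Blimp1fl/fl Foxp3cre, against 45.1 and 34.0 CPM in Foxp3cre. The groups did not overlap, and replicate 1 was far above replicate 2. The log2 fold change was 3.33 (SE 0.48, adjusted p = 0.00239). Dnaja4, a cytosolic J-domain co-chaperone, had 174.7 and 55.2 CPM against 16.4 and 12.1 CPM in Foxp3cre, a log2 fold change of 3.04 (SE 0.43, adjusted p = 0.00212). Again replicate 1 was the highest library and no Foxp3cre library reached replicate 2.

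Dnajb1 (HSP40), the main stress-inducible J-domain partner of HSP70, had 434.2 and 236.2 CPM in spleen Treg labelled Blimp1fl/fl Foxp3cre, against 99.5 and 82.4 CPM in Foxp3cre (log2 fold change 1.91, SE 0.30, adjusted p = 0.00495). Hspa8 had 1511 and 1081 CPM against 673.4 and 531.7 CPM (log2 fold change 1.13, SE 0.22, adjusted p = 0.0304). Neither gene overlapped between the groups. The HSF1 targets that were not called pointed the same way with wide intervals: the log2 fold change was 1.72 for Dnaja1 (adjusted p = 0.125), 1.81 for the inducible HSP90 Hsp90aa1 (adjusted p = 0.139) and 1.25 for mitochondrial Hspd1, or HSP60 (adjusted p = 0.166).

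The inducible HSP70 genes Hspa1a and Hspa1b are near-identical copies, so reads may be split between them. Hspa1a had 15.8 and 2.24 CPM in spleen Treg labelled Blimp1fl/fl Foxp3cre, against 0.0517 and 0 CPM in Foxp3cre, and Hspa1b had 44.3 and 8.67 CPM against 0.440 and 2.21 CPM. Neither overlapped between the groups, and the fitted fold changes of both exceeded that of Hsph1 but rest on few reads in Foxp3cre. Both stayed low next to Hspa8 and were not called (adjusted p = 0.279 for Hspa1a and 0.833 for Hspa1b). Of the 11 HSF1 targets among the members, all 11 had a positive fold change in spleen, with a median of 1.81, and 3 were called.

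Of the 11 chaperones of the endoplasmic reticulum, 0 were called by edgeR, 5 had a positive fold change and the median was -0.03. The log2 fold change was 0.37 for Hspa5 (adjusted p = 0.857) and -0.41 for Hsp90b1 (adjusted p = 0.97). Among the lists of other chaperone genes, 1 of 25 co-chaperones and heat shock factors was higher, the HSP90 co-chaperone Chordc1 (log2 fold change 1.78, adjusted p = 0.00609), and the list's median was 0.51. Of the 8 subunits of the chaperonin CCT, the 25 genes of endoplasmic reticulum stress and the 12 of mitochondrial quality control, 0 were called. The immediate early genes, which rise with cell handling, differed in 1 of 20 genes and summed to 3113 and 3723 CPM in the libraries labelled Blimp1fl/fl Foxp3cre and 3276 and 3747 CPM in Foxp3cre.

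The 4 called chaperones lost the call when Blimp1fl/fl Foxp3cre spleen replicate 1 or Foxp3cre spleen replicate 2 was left out, or when only the 4 spleen libraries were fitted; the fold changes stayed positive, at 2.12 or more for Hsph1 and 0.84 or more for Hspa8. The largest adjusted p over the alternatives was 0.136 for Hsph1, 0.144 for Dnaja4, 0.160 for Dnajb1 and 0.476 for Hspa8. B cell markers moved with the groups: 5 of 10 were lower, and their sum was 1373 and 1396 CPM in spleen Treg labelled Blimp1fl/fl Foxp3cre against 2752 and 6505 CPM in Foxp3cre. Their part in the chaperone difference was not tested.

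**Figure D1:**
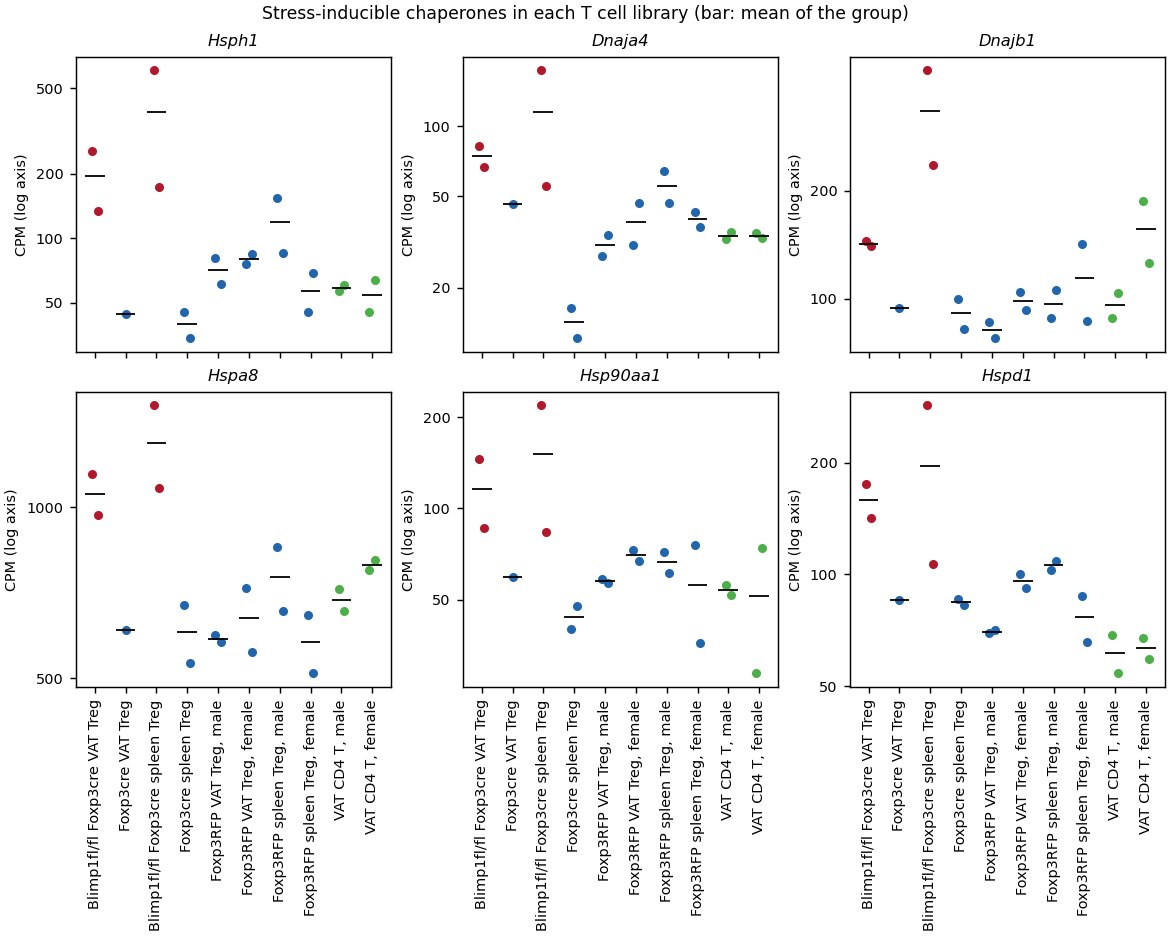
Level in CPM (log axis) of Hsph1, Dnaja4, Dnajb1, Hspa8, Hsp90aa1 and Hspd1 in each of the 19 T cell libraries, points for libraries and bars for group means. Spleen Treg labelled Blimp1fl/fl Foxp3cre hold the highest library for each of the 6 genes, and for Hsph1 that library has 606.2 CPM.

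In VAT the chaperones called in spleen had fold changes of the same sign under the label, but no member was called there. Of 69 members, 0 passed edgeR's test, where 0.819% of all genes did; DESeq2 called 4, and 6 had an unadjusted p under 0.05. Hsph1 had 254.7 and 134.1 CPM in VAT Treg labelled Blimp1fl/fl Foxp3cre and 44.1 CPM in the only Foxp3cre VAT library, which the test assumes to vary like the other T cell groups. Both labelled libraries were above it (log2 fold change 2.17, SE 0.60, adjusted p = 0.128). Hspa8 had 1143 and 968.9 CPM against 606.9 CPM, a log2 fold change of 0.83 (adjusted p = 0.256).

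Dnajb1 had 144.9 and 140.1 CPM in VAT Treg labelled Blimp1fl/fl Foxp3cre against 94.4 CPM, and Dnaja4 82.5 and 67.1 CPM against 46.1 CPM, with log2 fold changes of 0.63 (adjusted p = 0.726) and 0.73 (adjusted p = 0.798). For both, the Foxp3cre library was the lowest of the 3. Of the 11 HSF1 targets, 10 had a positive fold change, with a median of 0.87, and 0 were called. In the same comparison 4 of 20 immediate early genes were lower, their sum being 10124 and 10877 CPM against 27611 CPM in the Foxp3cre library, and 6 of 10 Treg markers were lower.

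The difference between the effect of the label in VAT and in spleen was itself tested, with 0 of 69 members called where 0.358% of all genes were; DESeq2 called 1 and 5 had an unadjusted p under 0.05. Dnaja4 had a difference of -2.31 on the log2 scale (adjusted p = 0.181), Dnajb1 of -1.28 (adjusted p = 0.419) and Hsph1 of -1.15 (adjusted p = 0.877). The Hsph1 difference turned to 0.016 without Blimp1fl/fl Foxp3cre spleen replicate 1, so its direction rested on that library. The label's effect on these genes is not shown to differ between the tissues.

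**Figure D2:**
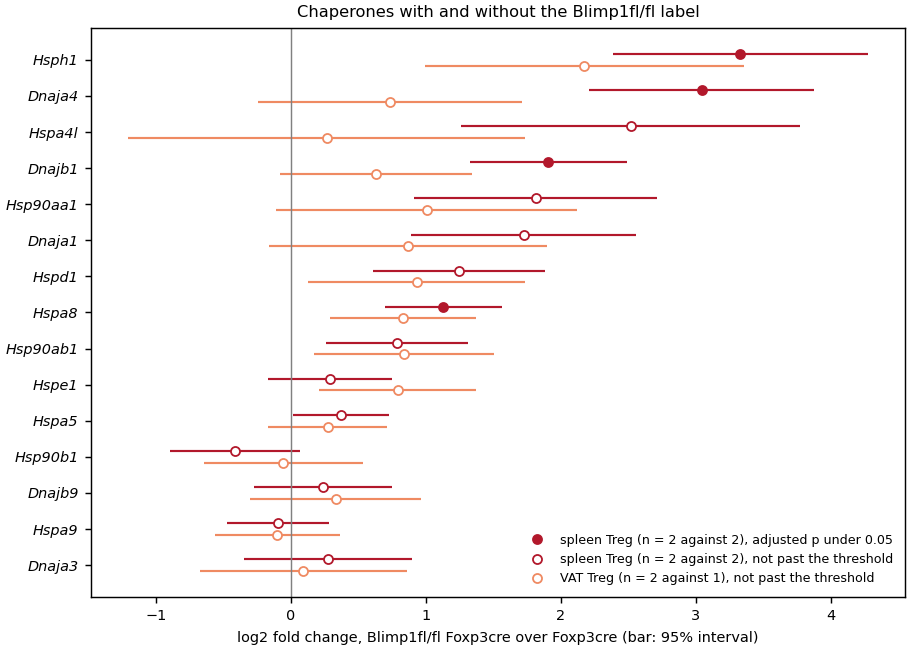
Log2 fold change of 15 chaperone genes in Treg labelled Blimp1fl/fl Foxp3cre over Foxp3cre Treg, in VAT and in spleen, with 95% confidence intervals. Hsph1 and Dnaja4 are farthest from 0 in spleen, at 3.33 and 3.04, while Hspa5 and Hsp90b1 lie near 0.

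The other Treg libraries placed these levels. In Foxp3RFP Treg, Hsph1 had 81.1 and 60.8 CPM in male VAT, 153.4 and 84.9 CPM in male spleen, 75.5 and 84.0 CPM in female VAT and 45.1 and 68.8 CPM in female spleen. All 8 were below the higher of the replicates labelled Blimp1fl/fl Foxp3cre in either tissue, but 1 male spleen library exceeded the lower VAT replicate of 134.1 CPM. The summed level of the 11 HSF1 targets was 3465 and 5680 CPM in spleen Treg labelled Blimp1fl/fl Foxp3cre and 1855 and 2376 CPM in Foxp3cre spleen Treg. In male Foxp3RFP spleen Treg it was 2790 and 3435 CPM, the higher of them only just below the lower labelled spleen replicate. That library exceeded the lower labelled VAT replicate of 3320 CPM.

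Between VAT and spleen the most repeated change among the chaperones was in Hspe1, the mitochondrial co-chaperonin that caps the HSP60 ring. It was lower in VAT Treg than in spleen Treg of every genotype and sex, and called in 3 of 4 comparisons, 1 of which (Foxp3cre) has a single VAT library. In Foxp3RFP males it had 45.8 and 48.7 CPM in VAT against 123.6 and 129.0 CPM in spleen. The groups were far apart (log2 fold change -1.45, SE 0.24, adjusted p = 0.000913), and the call held in all 10 alternatives.

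In Foxp3cre mice Hspe1 had 67.3 CPM in VAT against 166.4 and 223.6 CPM in spleen (log2 fold change -1.56, adjusted p = 0.00476), the spread of the lone VAT library being taken from the other T cell groups. In mice labelled Blimp1fl/fl Foxp3cre it had 135.6 and 91.9 CPM in VAT against 248.0 and 221.2 CPM in spleen (log2 fold change -1.06, adjusted p = 0.0316). VAT was below spleen in every library of both. Without any 1 of its 4 libraries the Blimp1fl/fl Foxp3cre call was lost (adjusted p up to 0.414, log2 fold change between -1.37 and -0.78), and the Foxp3cre call was lost with only its 3 libraries fitted (adjusted p = 0.0741). In Foxp3RFP females it had 88.3 and 71.2 CPM in VAT against 127.1 and 100.1 CPM in spleen, again without overlap, but the log2 fold change of -0.52 was not called (adjusted p = 0.316). The 4 comparisons used different libraries.

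B cell and T cell markers moved between the same groups. Of 10 B cell markers, 8 were lower in VAT in Foxp3RFP males, 8 in Foxp3cre, 3 in Foxp3RFP females and 0 under the Blimp1fl/fl Foxp3cre label. Their sum was 462 and 1179 CPM in VAT against 5020 and 5172 CPM in spleen of Foxp3RFP males, and 316 CPM in VAT against 2752 and 6505 CPM in spleen of Foxp3cre mice. Under the Blimp1fl/fl Foxp3cre label, where Hspe1 was called as well, it was 1045 and 1293 CPM in VAT against 1373 and 1396 CPM in spleen, and in Foxp3RFP females 3169 and 1905 CPM in VAT against 5757 and 5415 CPM in spleen. Of 10 T cell markers, 4 were lower in VAT in Foxp3RFP males, 2 in Foxp3cre and 1 in each of the other 2 comparisons. The part of these markers in the Hspe1 difference was not tested.

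Hspd1, which shares the promoter with Hspe1 and encodes the ring itself, was called in none of the 4 comparisons. In Foxp3RFP males it had 69.5 and 70.6 CPM in VAT against 102.9 and 108.7 CPM in spleen, with a log2 fold change of -0.63 that was not called (adjusted p = 0.317). In females it had 100.3 and 91.8 CPM in VAT against 87.5 and 65.6 CPM in spleen, higher in VAT. Under the Blimp1fl/fl Foxp3cre label its log2 fold change of -0.33 turned to 0.57 without spleen replicate 1.

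Few other members were called between tissues. In Treg labelled Blimp1fl/fl Foxp3cre, 2 of 69 were lower in VAT (2.90%) and 0 higher, where 1.26% of all genes were called and 0.571% were lower. Beside Hspe1 this was Dnajb1 (log2 fold change -1.25, adjusted p = 0.0408), whose spleen level is given above; its call was lost without spleen replicate 1 or either VAT replicate. In Foxp3cre Treg, 2 were higher and 2 lower (5.80%), where 4.92% of all genes were called, 2.7% higher and 2.22% lower. These were Dnaja4, higher at a log2 fold change of 1.67 (adjusted p = 0.0461), the ribosome-bound HSP70 Hspa14, lower at -1.14 (adjusted p = 0.0311), Hspe1 and Hspb8. Without Foxp3cre spleen replicate 2 Hspe1 alone was called, and without replicate 1 Hspe1 and Hspa14.

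In Foxp3RFP males 1 was higher and 2 lower (4.35%), where 6.56% of all genes were called, 3.51% higher and 3.05% lower. Beside Hspe1, Hspb11 was lower with 3.47 and 2.16 CPM in VAT against 12.8 and 18.6 CPM in spleen (log2 fold change -2.51, adjusted p = 0.0149). In Foxp3RFP females 0 of 69 were called by edgeR, where 1.71% of all genes were; DESeq2 called 4 and 9 had an unadjusted p under 0.05. The share of members called was thus above that of all genes in 2 of the 4 comparisons and below it in the other 2.

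Hspb8, a small heat shock protein of the autophagy pathway for misfolded protein, was the remaining call. It had 15.5 CPM in the Foxp3cre VAT library and 0 CPM in both spleen libraries, at least 326-fold higher with a floor of 3 counts over the group (adjusted p = 0.032). In Foxp3RFP males it had 3.40 and 7.65 CPM in VAT against 0 CPM in spleen, at least 179-fold higher (adjusted p = 0.0325). Both fold values set observed levels over that floor and are not lower confidence limits. Stroma and fat held far more of Hspb8, GP38+ stroma between 357 and 461 CPM. Fibroblast markers moved the same way, 8 of 10 being called higher in both comparisons, with sums of 1561 CPM in Foxp3cre VAT Treg against 57 to 58 CPM in spleen and of 895 to 2269 CPM in male Foxp3RFP VAT Treg against 65 to 68 CPM in spleen. Without the 4 T cell libraries highest in markers of other cells, a choice made after seeing the data, the Hspb8 calls of both comparisons and the Hspb11 call were lost; each Hspb8 call was also lost without any 1 spleen library of its comparison and, in Foxp3RFP males, without either VAT library.

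Dnajb9 (ERdj4), a J-domain protein of the endoplasmic reticulum that rises with secretory load, was higher in VAT in all 4 comparisons without being called. It had 97.7 and 136.7 CPM in VAT against 60.4 and 61.4 CPM in spleen under the Blimp1fl/fl Foxp3cre label (log2 fold change 0.93, adjusted p = 0.105). In Foxp3RFP males it had 75.9 and 84.1 CPM in VAT against 42.0 and 57.8 CPM in spleen (log2 fold change 0.65, adjusted p = 0.178). The libraries of VAT and spleen did not overlap in either. Immediate early genes were called higher in VAT in 10 of 20 genes (1 lower) under the Blimp1fl/fl Foxp3cre label, 15 in Foxp3cre, 16 in Foxp3RFP males and 11 in females. VAT cells were released from fat before sorting, and the part of that step was not tested.

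**Figure D3:**
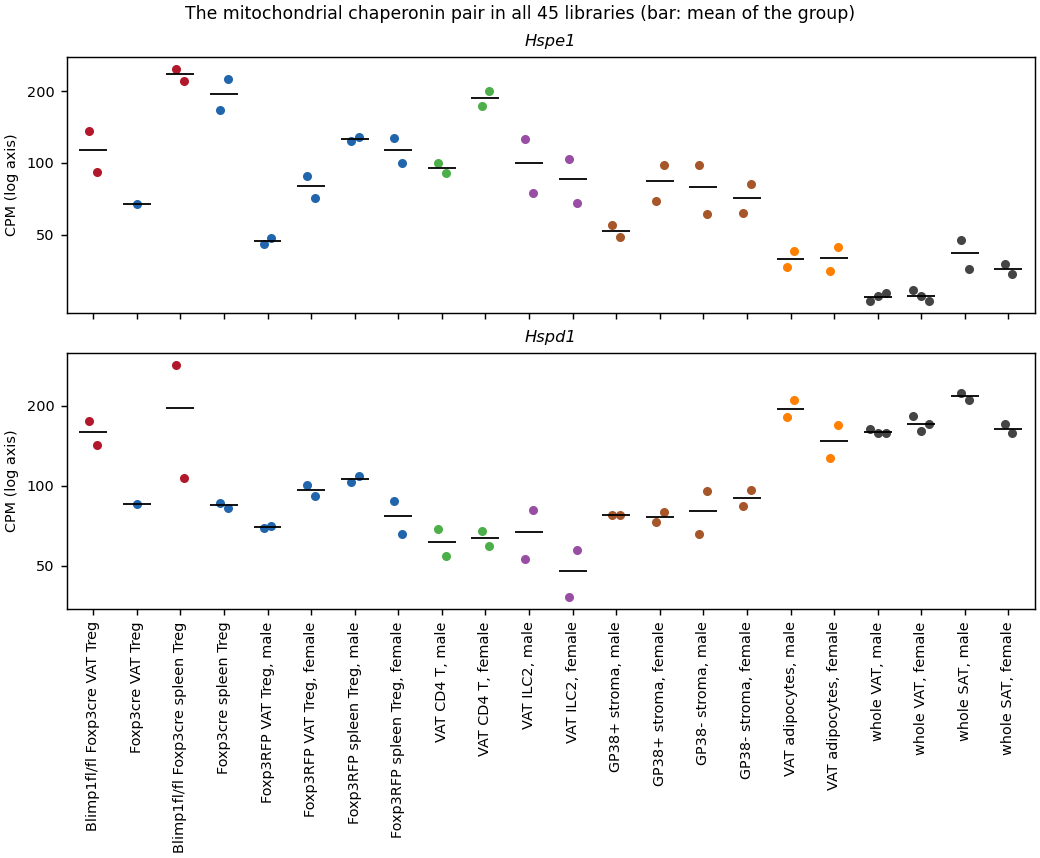
Level in CPM of Hspe1 and Hspd1 in each of the 45 libraries by group. Hspe1 is lower in VAT Treg than in spleen Treg of the same genotype and sex, and at 26.4 to 29.3 CPM is lowest in whole VAT, where Hspd1 has 157 to 183 CPM.

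Few chaperones were called between the sexes in T cells. In VAT Treg 0 of 69 members were called by edgeR, where 1.61% of all genes were; 3 had an unadjusted p under 0.05 and DESeq2 called 1. In spleen Treg the count was 0, where 0.075% of all genes were called, with 8 at an unadjusted p under 0.05 and 1 by DESeq2. Hspe1 had 45.8 and 48.7 CPM in male VAT Treg against 88.3 and 71.2 CPM in female VAT Treg, without overlap, but its log2 fold change of -0.77 was not called (adjusted p = 0.167).

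In VAT CD4 T cells 1 of 69 was called, 1.45% of the members, where 1.48% of all genes were called and 0.79% were lower; DESeq2 called 6. It was again Hspe1, with 100.05 and 90.8 CPM in male cells against 173.7 and 199.4 CPM in female cells. The groups were apart by more than their spread (log2 fold change -0.99, SE 0.24, adjusted p = 0.0429), yet the call held in only 2 of 11 alternatives and was lost without any 1 of the 4 libraries. Fibroblast marker sums were 681 and 3003 CPM in male against 114 and 182 CPM in female VAT CD4 T cells, and their part was not tested. The difference of the tissue effect between males and females was not called for any of 69 members, where 0.531% of all genes were; DESeq2 called 0 and 3 had an unadjusted p under 0.05. For Hspe1 it was -0.93 (adjusted p = 0.372).

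The second set of comparisons put cells taken out of VAT beside whole VAT. Every kind of sorted cell, and the adipocytes, had more Dnajb1 than the tissue they came from. Adipocytes and both stromal fractions also had more Hspa1a, and 5 of the 6 kinds had more Hspe1 together with less Hspd1 and Hspa9 (all but adipocytes). These groups also differ in cell type. Sorted stroma and ILC2 had another library kit (Clontech) than whole VAT (TruSeq), so kit and cell type cannot be told apart for them. The labels name a lipid tissue RNA kit for whole fat and adipocytes and not for sorted cells. RNA kit and cell type therefore cannot be told apart for Treg and CD4 T cells either.

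Counts of members called against whole VAT were large, as were those of all genes. Foxp3RFP VAT Treg had 12 of 71 higher and 24 lower (50.7%), where 50.0% of all genes were called, 19.1% higher and 30.9% lower. VAT CD4 T cells had 15 higher and 30 lower (63.4%), where 57.8% were called, 19.3% higher and 38.5% lower. ILC2 had 25 higher and 24 lower (69.0%), where 57.8% were called, 24.2% higher and 33.6% lower. The shares of members were close to those of all genes in Treg and somewhat above in the others.

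GP38+ stroma had 19 higher and 21 lower (56.3%), where 50.0% of all genes were called, 17.4% higher and 32.6% lower. GP38- stroma had 23 higher and 19 lower (59.2%), where 48.2% were called, 19.3% higher and 28.9% lower. Adipocytes had 5 higher and 1 lower (8.45%), where 6.01% were called, 2.61% higher and 3.4% lower. The adipocyte count was 46 when only adipocytes and whole VAT were fitted. Genes called higher were shorter in each of the 6 comparisons, and in GP38+ stroma the median exon length was 3.18 kb for all genes called higher and 5.18 kb for those called lower, and among the members 2.97 and 4.86 kb.

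Dnajb1 had 29.1 to 41.3 CPM in the 6 whole VAT libraries. Male adipocytes had 185.2 and 244.2 CPM and female adipocytes 209.9 and 233.0 CPM. It ran at 94.1 to 163.9 CPM in GP38+ stroma, 97.7 to 238.4 CPM in GP38- stroma, 44.1 to 153.0 CPM in ILC2, 88.5 to 187.6 CPM in CD4 T cells and 77.4 to 104.5 CPM in Treg. Every library of released cells was above every library of whole VAT. The log2 fold change was 2.70 in adipocytes (adjusted p = 1.27e-10), 2.26 in GP38- stroma (adjusted p = 2.03e-10), 1.83 in GP38+ stroma, 1.27 in ILC2, 1.87 in CD4 T cells and 1.42 in Treg (adjusted p = 8.06e-07). Whole SAT, which like whole VAT was not dissociated, had 35.1 to 39.6 CPM.

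Hspa1a, the inducible HSP70 that is near silent in most unstressed tissue, had 20.6 and 98.5 CPM in adipocytes of males and 88.3 and 134.7 CPM in those of females, against 3.97 to 10.5 CPM in whole VAT. GP38+ stroma had 30.8 to 65.7 CPM and GP38- stroma 10.8 to 132.3 CPM. No library of these kinds overlapped with whole VAT, although their own spread was wide. The log2 fold change was 3.67 in adipocytes (adjusted p = 0.00427, or 0.0568 without male replicate 2), 3.54 in GP38- stroma (adjusted p = 0.000688) and 2.96 in GP38+ stroma (adjusted p = 0.00302). In Treg, CD4 T cells and ILC2 it was not called, with 0.33, 0.67 and -0.04. Hspa1b followed in stroma, at 3.04 in GP38+ and 2.48 in GP38- (called in 8 of 15 alternatives). It was not called in adipocytes (log2 fold change 2.17, adjusted p = 0.216). In whole SAT, which was not dissociated, Hspa1b was higher in females than in males, at the levels given below. Released cells were not tested against whole SAT.

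The immediate early genes were also higher in released cells, including Treg, CD4 T cells and ILC2, where Hspa1a was not called. Of 20, all 20 were called higher in Treg and in adipocytes, 19 in CD4 T cells, GP38+ and GP38- stroma, and 17 in ILC2 (1 lower). Their sum was 11105 to 19880 CPM in adipocytes, 22720 to 28898 CPM in ILC2 and 10032 to 37808 CPM in Foxp3RFP VAT Treg, against 687 to 1042 CPM in whole VAT and 560 to 829 CPM in whole SAT. Whether dissociation set the chaperone differences was not tested, since no cells were sequenced both ways. By Spearman correlation over the 22 group means, the genes most like Hspa1a among 18806 were Hspa1b (0.868), Aaed1 (0.762), 9530077C05Rik (0.756) and Fkbp1a (0.729), given as a description.

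**Figure D4:**
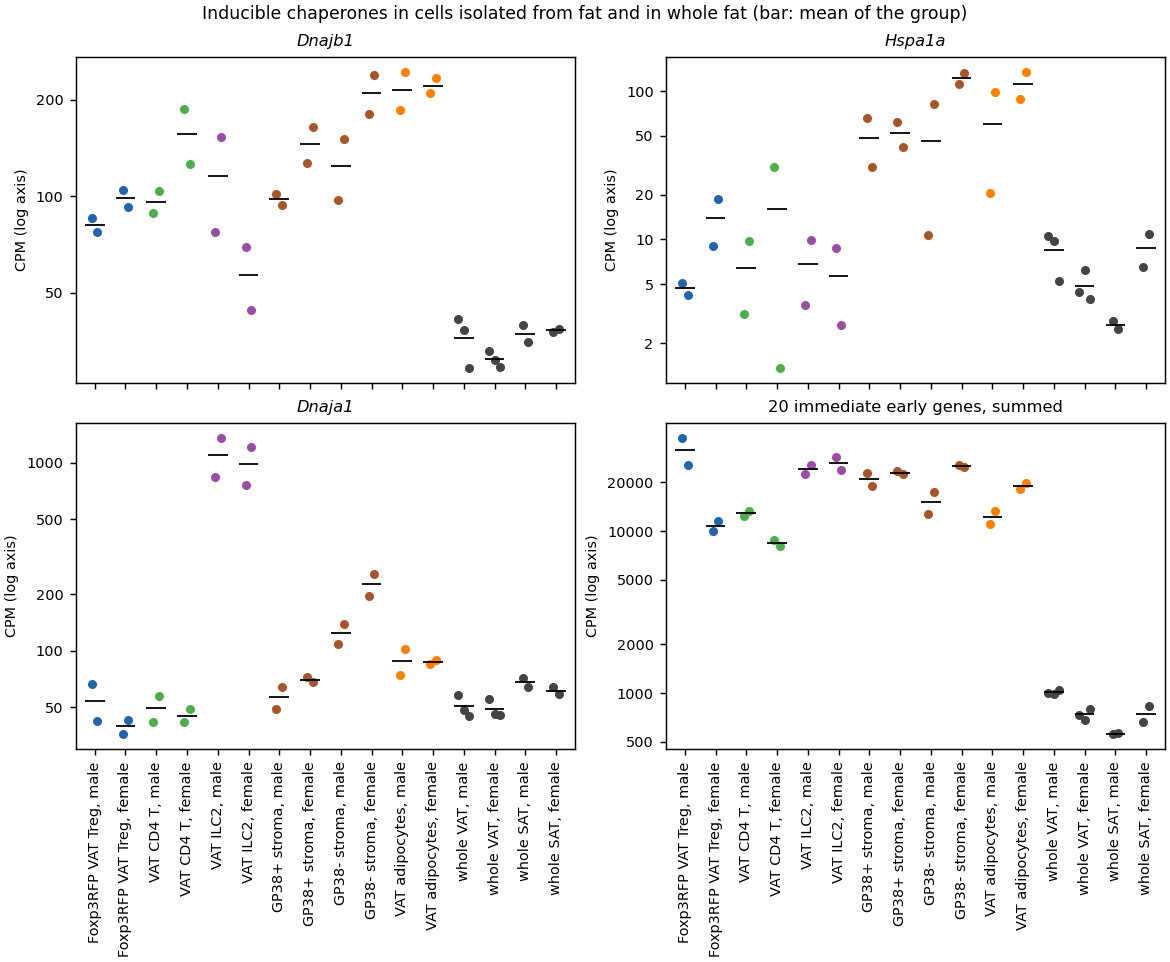
Level in CPM (log axis) of Dnajb1, Hspa1a, Dnaja1 and the sum of 20 immediate early genes in each library of cells taken out of VAT, whole VAT and whole SAT. Dnajb1 is at least 44.1 CPM in every library of released cells and at most 41.3 CPM in whole fat, and Dnaja1 stands out in ILC2 at 760.8 to 1359 CPM.

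Dnaja1 set ILC2 apart. This J-domain protein, a general partner of Hspa8, had 836.9 and 1359 CPM in ILC2 of males and 760.8 and 1216 CPM in ILC2 of females, against 45.2 to 58.3 CPM in whole VAT (log2 fold change 4.39, SE 0.25, adjusted p = 6.48e-15). It was also higher in GP38- stroma, which had 109.4 to 255.9 CPM (log2 fold change 1.75), and was not called in Treg or CD4 T cells (log2 fold change -0.10 and -0.07). GP38+ stroma had 48.9 to 72.3 CPM. Both stromal fractions were made with the same kit as ILC2, and the part of the kit was not tested. In adipocytes the log2 fold change of 0.82 (adjusted p = 0.0257) was called in 7 of 15 alternatives.

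Mitochondrial chaperones split. Hspe1 had 26.4 to 29.3 CPM in whole VAT, 90.8 to 199.4 CPM in CD4 T cells and 68.1 to 125.9 CPM in ILC2, with log2 fold changes of 2.27 and 1.74. It was 1.15 in Treg, 1.25 in GP38+ and 1.45 in GP38- stroma, all called. Hspd1 had 157.1 to 182.8 CPM in whole VAT and was lower in the same 5 kinds, by -1.01 in Treg, -1.41 in CD4 T cells, -1.55 in ILC2, -1.10 in GP38+ and -0.96 in GP38- stroma. Hspa9, the mitochondrial HSP70, was lower in all 5, at -1.42, -1.51, -2.45, -1.35 and -1.50 in the same order. In adipocytes none of these 3 was called, with 0.53 for Hspe1, 0.04 for Hspd1 and 0.10 for Hspa9.

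Among the cytosolic chaperones, Hspa8 was higher in Treg (log2 fold change 1.28) and CD4 T cells (1.55), with 555.7 to 808.0 CPM in those libraries against 202.5 to 285.5 CPM in whole VAT. Dnajc9, a histone chaperone with a J domain, had the largest called rise of both T cell kinds, 2.60 in Treg and 2.82 in CD4 T cells. Hsp90aa1 was higher in ILC2 (1.35) and GP38- stroma (1.59) and lower in CD4 T cells (-0.79) and GP38+ stroma (-0.73). Hsph1, which had the largest called rise under the Blimp1fl/fl Foxp3cre label in spleen, was lower in GP38- stroma (-1.29, adjusted p = 0.00538) and called in none of the other kinds.

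Of the 11 endoplasmic reticulum chaperones, 5 were higher and 2 lower in GP38+ stroma, 5 and 3 in ILC2, and 4 and 2 in GP38- stroma. Hspa5 had 1350 to 1500 CPM in GP38+ stroma against 496.2 to 740.6 CPM in whole VAT, a log2 fold change of 1.26. Dnajb9 had 191.8 to 220.5 CPM against 46.0 to 79.3 CPM (log2 fold change 1.84), and Hspa13 rose by 1.42. No library overlapped for Hspa5 or Dnajb9. In GP38- stroma Hspa5 was higher by 0.73 and Hsp90b1 by 0.56. In adipocytes Dnajb9 was higher by 0.98 (adjusted p = 9.59e-05) and Hspa13 lower by -0.69 (adjusted p = 0.00739), both in all 15 alternatives.

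Small heat shock proteins and the divergent HSP70s Hspa12a and Hspa12b were high in stroma, adipocytes or whole fat and for the most part low in lymphoid cells. Hspb8 had 357.1 to 460.7 CPM in GP38+ stroma, 136.6 to 333.2 CPM in adipocytes and 132.7 to 151.9 CPM in whole VAT, against at most 0.196 CPM in ILC2. Hspa12a had 205.8 to 300.1 CPM in whole VAT and at most 0.440 CPM in ILC2. Of 6 small heat shock proteins, 4 were lower than whole VAT in Treg, 5 in CD4 T cells and 5 in ILC2, and 0 higher; Hspb1 (HSP27) was not called in adipocytes (log2 fold change 1.68, adjusted p = 0.195). Of the 8 CCT subunits, 7 were higher in Treg, 8 in CD4 T cells, 5 in ILC2 (1 lower), 8 in GP38+ and 6 in GP38- stroma (1 lower) and 0 in adipocytes.

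Between the sexes, more chaperones were called in fat than in T cells. In whole VAT 6 of 70 members were higher and 1 lower in males (10.0%), where 13.1% of all genes were called, 8.39% higher and 4.71% lower. In whole SAT 10 were higher and 6 lower (22.9%), where 16.5% were called, 7.09% higher and 9.43% lower. In VAT adipocytes 12 were higher and 7 lower (27.1%), where 35.3% were called, 14.5% higher and 20.8% lower. These shares lie on both sides of those of all genes. The SAT count was 4 without female replicate 2, 8 without male replicate 1 and 10 without female replicate 1. The whole VAT count was 2 without female replicate 3 or male replicate 2, 3 without male replicate 1 and 4 without female replicate 2 or male replicate 3. The adipocyte count was 11 without either female replicate and 12 without male replicate 1.

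Cell markers differed between the sexes in the same libraries. In whole VAT 12 of 14 macrophage markers were higher in males, with sums of 4811 to 5117 CPM in males against 2807 to 2919 CPM in females. Of 10 adipocyte markers there, 3 were lower in males (Retn, Cfd and Adipoq), with sums of 25973 to 27318 CPM in males against 27827 to 30953 CPM in females, and 6 of 10 muscle markers were lower. In whole SAT 4 adipocyte markers were higher in males, Cfd by 1.16, Pnpla2 by 0.56, Plin1 by 0.53 and Lipe by 0.43 on the log2 scale, with sums of 48898 and 39192 CPM in males against 42080 and 32146 CPM in females. In VAT adipocytes 8 of the 10 were higher in males, with sums of 36271 and 38258 CPM in males against 31617 and 32650 CPM in females. Their part in the chaperone differences between the sexes was not tested.

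Hspb8 was higher in males in adipocytes, with 315.1 and 333.2 CPM against 136.6 and 172.7 CPM in females (log2 fold change 1.08, SE 0.13, adjusted p = 7.49e-05). In whole SAT it had 235.8 and 188.0 CPM in males against 121.9 and 129.4 CPM in females (log2 fold change 0.84, SE 0.13, adjusted p = 0.001). The sexes did not overlap in either, and both calls held in all 9 alternatives. In whole VAT males had 132.7, 141.6 and 135.5 CPM and females 151.9, 134.4 and 132.7 CPM, so the sexes overlapped there.

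Dnajb4, a cytosolic J-domain protein, was higher in males in whole VAT, with 105.7, 87.4 and 83.4 CPM against 61.0, 75.9 and 64.8 CPM in females (log2 fold change 0.48, adjusted p = 0.00662). In adipocytes it had 163.8 and 168.2 CPM in males against 102.5 and 117.7 CPM in females (log2 fold change 0.60, adjusted p = 0.00267). Dnajc6 (auxilin), which uncoats clathrin vesicles, was higher by 1.74 in whole VAT and by 2.58 in adipocytes, at 12.1 against 3.68 CPM and 6.51 against 1.19 CPM on average. Hspb7, a small heat shock protein known from heart, had 109.5 and 116.7 CPM in male against 19.9 and 8.57 CPM in female adipocytes (log2 fold change 3.14, adjusted p = 0.00462, or 0.0725 without female replicate 2).

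Of the 8 mitochondrial chaperones, 5 were called higher in male SAT, where 7.09% of all genes and 4 of 10 adipocyte markers were called higher: Hspa9 by 0.51, Hspd1 by 0.48, Dnaja3 by 0.53, Dnajc15 by 0.71 and Dnajc11 by 0.36. Hspa9 had 719.6 and 673.7 CPM in male against 527.4 and 507.1 CPM in female SAT (adjusted p = 0.00935, or 0.115 at the largest over the alternatives). Of a separate list of 12 mitochondrial quality control genes, 9 were higher and 0 lower in male SAT. In adipocytes 2 of the 8 were higher in males, Hspa9 by 0.49 and Hspd1 by 0.41, and 8 of the 12 list genes. In whole VAT 0 of the 8 were called.

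Hspa1b was lower in male SAT, with 6.03 and 3.33 CPM against 25.3 and 50.8 CPM in females (log2 fold change -2.92, SE 0.64, adjusted p = 0.00772, or 0.0596 at the largest when a library was left out), and 6 of 20 immediate early genes were lower too. Dnajc12 was lower by -1.18 in male SAT in all 9 alternatives, and whole SAT markers of mesothelium summed to 2.02 and 4.81 CPM in males against 312 and 767 CPM in females, with muscle markers at 87.2 and 139 CPM against 520 and 569 CPM. In adipocytes the lower members included Dnajb5, at 12.3 against 24.7 CPM on average, and the vascular HSP70 Hspa12b, which had 87.7 and 95.3 CPM in males against 203.1 and 146.6 CPM in females (log2 fold change -0.92, adjusted p = 0.0245). Endothelial markers summed to 948 and 970 CPM in male against 4041 and 4462 CPM in female adipocytes, and 9 of 20 immediate early genes were lower in males. The part of these marker and immediate early gene differences in the chaperone results was not tested.

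Hspa12a ran in opposite directions. In adipocytes it had 231.3 and 233.7 CPM in males against 140.9 and 136.0 CPM in females (log2 fold change 0.76, SE 0.12, adjusted p = 0.000383). In whole VAT it had 205.8, 216.1 and 220.2 CPM in males against 296.7, 253.5 and 300.1 CPM in females (log2 fold change -0.38, SE 0.10, adjusted p = 0.0181). The sexes did not overlap in either material, and the adipocyte call held in all 9 alternatives and the whole VAT call in 7 of 11, with an adjusted p of up to 0.0937 when a library was left out.

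In the other sorted cells few chaperones were called between the sexes. In GP38+ stroma 0 members were called by edgeR, where 0.335% of all genes were; 6 had an unadjusted p under 0.05 and DESeq2 called 2. In GP38- stroma 1 was called, where 0.89% of all genes were called and 0.213% were higher; DESeq2 called 8. It was Dnajc16, a J-domain protein of the endoplasmic reticulum, with 8.85 and 12.0 CPM in males against 0.165 and 0.366 CPM in females (log2 fold change 5.32, adjusted p = 0.0358); the call was lost without either female library. In ILC2 0 of 62 members were called, where 0.0375% of all genes were, with 0 at an unadjusted p under 0.05 and 0 by DESeq2; Dnaja1 had a log2 fold change of 0.11 between the sexes.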

How the data were processed

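RNA was sequenced from the 45 libraries described above, with a lipid tissue RNA kit for whole fat and adipocytes and with Clontech libraries for stroma and ILC2 and TruSeq libraries otherwise, per the labels' protocols. The values used are the deposited raw counts per gene, which the authors made with Subread 1.6.2 and featureCounts on GRCm38 (mm10), per the submitters' processing notes; no source used here gives the strand setting, so overlapping and antisense genes cannot be separated. The authors' deposited log2 FPKM tables, made with limma per the same notes, gave gene symbols and a check of the order of levels, in which 9 of the 10 most abundant members were shared. Of 27179 genes, 16534 were named from those files and 8784 from RefSeq, and 1861 have no name; 6 columns that match no sample were not used.

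Groups follow the labels. The chaperone genes, gene lists and comparisons were chosen with earlier results of these data known. Levels are CPM with edgeR's TMM scaling over 45 libraries; marker and list sums are plain CPM; exon lengths are from GENCODE on GRCm38. Counts were tested with edgeR 4.0.16 (R 4.3.3), by quasi-likelihood with TMM and filterByExpr, in 5 fits: 19 T cell libraries, 14 fat and adipocyte libraries, 8 stroma libraries, 4 ILC2 libraries, and all 45 for released cells against whole VAT (mean of the sexes). Genes with a Benjamini-Hochberg adjusted p under 0.05 over all genes of the fit were called, in 23 comparisons. For some of the comparisons the fits were run on simulated counts. The simulated dispersion followed the fitted trend, so the further spread of single genes was not tested. Alternatives were DESeq2 1.42.0, DESeq2 size factors, no count filter, the replicate number as a block, fitting only the groups compared, and leaving out each library. Test values are given for called members with the largest change, up to 8 in each direction, and for key chaperones whatever their result; Dnaja4 in VAT and in the difference between tissues was chosen after its values were seen. No 2 replicates agreed within sampling noise (lowest chi-square per degree of freedom 14.7).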

Additional observations from a re-analysis of the deposited data

Results flagged for a closer look

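Hspa12a had opposite sex differences in adipocytes and in whole VAT: its log2 fold change of males over females was 0.76 in VAT adipocytes and -0.38 in whole VAT, a difference of 1.14, with every male library on one side of every female library in each material. The difference between the materials was not tested.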

How the results depend on the processing

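Counts of chaperone genes called moved with the tool and the libraries. With DESeq2 they were 9 for the Blimp1fl/fl Foxp3cre label in spleen, 4 in VAT and 1 for the difference; 4, 6, 7 and 4 for VAT against spleen (that label, Foxp3cre, Foxp3RFP males, Foxp3RFP females); and 1, 1, 6, 2 and 8 for sex in VAT Treg, spleen Treg, CD4 T cells, GP38+ and GP38- stroma. Without a count filter they were 8 for the label in spleen and 1 in VAT. With only the groups compared they were 0 for the label in spleen, 1 and 6 for VAT against spleen in Foxp3cre and Foxp3RFP males, 46 for adipocytes against whole VAT, and 12, 4, 1, 0 and 0 for sex in whole VAT, whole SAT, GP38+ stroma, GP38- stroma and CD4 T cells. DESeq2 size factors gave 0 for sex in CD4 T cells. Without the 4 T cell libraries highest in markers of other cells, male VAT against spleen gave 1.

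Replicate numbers were not taken to pair the libraries. Correlations of deviations were -0.02, 0.13 and -0.10 for the 3 pairs of whole VAT. With at most 2 pairs elsewhere the numbers cannot settle it: between the sexes the correlation was 0.46 in VAT Treg, 0.44 in whole SAT and 0.44 in ILC2, and in the other comparisons it lay between -0.12 and 0.09. With the replicate block, sex gave 0 in CD4 T cells and in GP38- stroma, and the other counts stayed within 1.5 times. In CD4 T cells the same-numbered libraries deviated in opposite directions (r = -0.12), and the block with exchanged numbers also gave 0.

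Leaving out 1 library gave 0 to 5 for the label in spleen, 0 to 1 for the difference, 0 to 1, 1 to 2, 1 to 2 and 0 to 3 for VAT against spleen, 3 to 7 for adipocytes against whole VAT, and 0 to 2, 0 to 1, 0 to 1, 0 to 4, 11 to 14, 2 to 5 and 4 to 15 for sex in spleen Treg, CD4 T cells, ILC2, GP38- stroma, adipocytes, whole VAT and whole SAT. With 1 library left out the Hsph1 difference ran between -1.80 and 0.016, and VAT against spleen for Hspd1 under the label between -0.85 and 0.57. The cause of these changes was not tested. Depth limits the weakly expressed members: Hspa1a and Hspa1b had at most 2.97 CPM in spleen Treg of Foxp3cre and Foxp3RFP mice, and the intervals of their fold changes were wide.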
